A study of Mus musculus with 4 samples.

Results

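The p53 target genes described here are 10 genes whose transcription is known to be raised by the tumour suppressor p53, namely Cdkn1a, Ccng1, Mdm2, Bax, Eda2r, Trp53inp1, Phlda3, Zmat3, Sesn2 and Gdf15. They were chosen by gene name, with earlier results of these data known, and all 10 were found among the 54078 features of the expression table. RNA-sequencing was performed on 4 kidney RNA pools from adult male mice at day 3 after bilateral ischemia-reperfusion (I/R), in which the vessels of both kidneys were clamped for 30 min. There were 2 WT and 2 Apela Ksp KO pools, and each pool combined RNA of 3 mice. Apela encodes Elabela (ELA), a peptide ligand of the receptor APJ. The comparison asks which renal transcripts differ after the same ischemia when tubular cells lack ELA. In Apela Ksp KO mice the floxed Apela gene is deleted by Cre under the Ksp-cadherin promoter, which is active in renal tubular epithelium, so other renal cells keep the gene. The WT mice were littermates with the same floxed Apela alleles and no Cre, so floxed Apela was shared by both groups, and Cre was carried by the KO group alone. All 4 pools came from injured kidneys, so no value without I/R was analysed here. At this stage the study reported worse renal function, higher tubular injury scores and lower survival in KO than in WT mice. Genotype and degree of injury therefore cannot be told apart in these pools. The labels give the strain as C57BL/6 x 129S4/SvJae, and the study's methods give a C57BL/6 background.

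The p53 protein is stabilised when DNA is damaged or when cells are otherwise stressed, and it then binds paired copies of a short DNA motif and activates nearby genes. Its targets include an arrest arm (Cdkn1a, Ccng1), a feedback arm that limits p53 itself (Mdm2), a death arm (Bax, Eda2r, Trp53inp1, Phlda3) and genes that handle RNA, nutrient or systemic stress (Zmat3, Sesn2, Gdf15). In the injured kidney, p53 activity in tubular cells is known for its part in cell cycle arrest and tubular cell death after ischemia. Several of these genes also respond to other regulators, among them ATF4 for Sesn2 and Gdf15.

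The promoter sequences below are shown because they hold a match to the p53 motif, paired or single, and because they differ among the members. RefSeq promoter windows (GRCm38.p6) running from 250 bases before to 50 bases after a start site were found for 8 of the 10 genes, in 10 windows. They were searched on both strands for the p53 half-site consensus, a motif of 10 bases, and for a double site of 20 bases made of 2 half-sites with no spacer and at least 19 matching bases. A half-site was found in 4 of the 10 windows, those of Cdkn1a, Ccng1, Mdm2 and Bax, and in 2745 of all 32851 windows (8.36%). The double site was found in the Cdkn1a and Ccng1 windows and in 29 of all windows (0.0883%), and it overlaps a half-site in both. A match is a description of the letters in the window and was not measured as binding. Capitals mark the double site in Cdkn1a and Ccng1 and the half-site in Mdm2 and Bax, and each sequence is written 5′ to 3′ on the strand of its gene.
Cdkn1a, chr17:29090903-29090972, plus strand: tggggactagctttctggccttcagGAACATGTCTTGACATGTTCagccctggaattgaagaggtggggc
Ccng1, chr11:40755437-40755506, minus strand: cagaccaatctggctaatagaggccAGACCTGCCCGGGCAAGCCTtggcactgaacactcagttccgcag
Mdm2, chr10:117710925-117710954, minus strand: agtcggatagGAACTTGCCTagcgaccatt
Bax, chr7:45467080-45467109, minus strand: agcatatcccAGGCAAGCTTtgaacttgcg

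**Figure D1:**
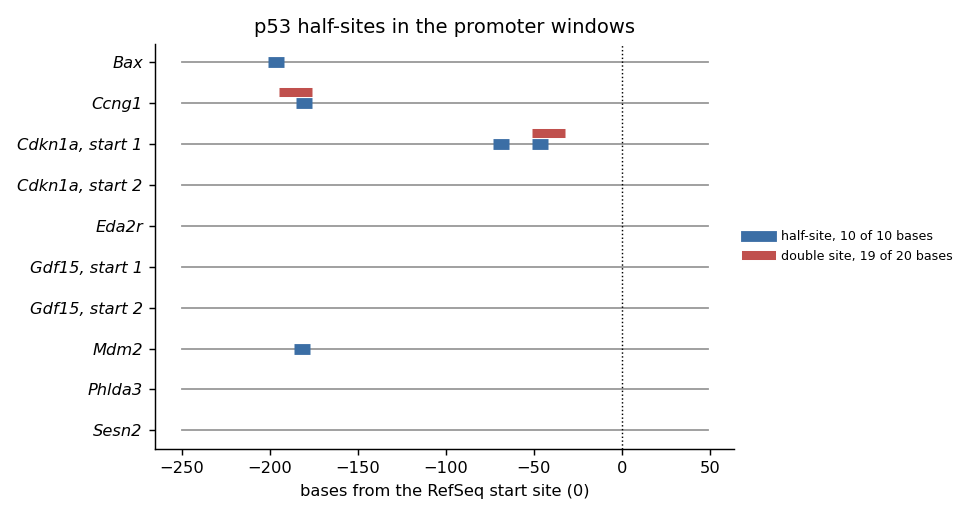
Positions of p53 motif matches in the 10 RefSeq promoter windows of the p53 target genes, in bases from the start site at 0, with negative values upstream. Blue blocks are half-sites of 10 bases and red blocks are double sites of 20 bases with 19 matching bases. The double site of Cdkn1a lies 51 to 32 bases upstream of its first start and that of Ccng1 195 to 176 bases upstream, and the windows of Eda2r, Gdf15, Phlda3 and Sesn2 and the second start of Cdkn1a hold no match.

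Library depth was similar in the 4 pools, with 16045724 to 16927742 reads on genes. A member held between 51 reads in a pool (Eda2r) and 5209 reads (Ccng1). The targeted gene, Apela, measured 5.27 and 4.57 FPKM (fragments scaled to transcript length and to library size) in WT, against 0.536 and 0.245 in KO, in the direction of the labels, with a log2 fold change of -2.62 and an adjusted p = 0.466 by limma (0.409 to 0.746 when settings other than the pools used were varied, and every range of an adjusted p below is over the same settings). Replicate pools of 1 group differed by more than counting error. The text deposited with the series names adipose tissue as the RNA source, whereas the sample labels and the study name kidney. Of the 6 adipose markers, Ucp1 was at 0 in all 4 pools and Adipoq at 0 in 3, against a summed FPKM of 1438 to 2220 for 6 proximal tubule markers. The summed FPKM of the adipose markers was 1.48 and 0.312 in WT, against 8.32 and 3.19 in KO, without overlap. Most of it was Cidec, which encodes a lipid droplet protein, at 1.37 and 0.282 in WT, against 7.92 and 2.79 in KO (log2 fold change 2.12, adjusted p = 0.785 by limma, range 0.746 to 0.824).

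No p53 target gene passed the threshold of an adjusted p under 0.05, and no gene of the 15414 tested did (0%), by limma or with voom weights. At an unadjusted p under 0.05 the 2 fits called 974 and 970 genes. The study, with a model not named in its methods, reported differentially expressed genes at the same adjusted threshold from its RNA-sequencing at this stage. Why its count differs from the 0 found here was not tested. In FPKM, Cdkn1a was 2.06-fold higher in the Apela Ksp KO pools, Sesn2 was 1.30-fold higher, and Eda2r, the least abundant member, had 0.721 of its WT level. The remaining members had KO to WT ratios from 0.925 (Mdm2) to 1.39 (Gdf15), and for Gdf15 the replicates of each group differed by more than the group means. All 10 members passed the filter on low values, a mean FPKM of at least 0.5. The log2 fold change was above 0 for 7 of them and below 0 for Mdm2, Eda2r and Bax. At an unadjusted p under 0.05, without adjustment for the number of genes, limma called 2 of 10 members higher in KO (Cdkn1a and Sesn2) and 0 lower, where 3.29% of all genes tested were called higher and 3.03% lower. Both KO pools lay above both WT pools for 4 members (Cdkn1a, Trp53inp1, Zmat3 and Sesn2) and below them for 2 (Mdm2 and Eda2r), and the pools overlapped for the remaining 4. Over all genes tested, 19.7% had both KO pools above and 18.1% both below. The share of members above was thus larger than the background and the share below was close to it, in a list of only 10 genes whose difference from the background was not tested. The median log2 fold change of the members was 0.21, beside 0.01 over all genes tested, and 0.17 over the 9 members other than Cdkn1a. It was 0.10 without KO replicate 2 and 0.11 without WT replicate 1, so a single pool moved the median by over 1.5 times.

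**Figure D2:**
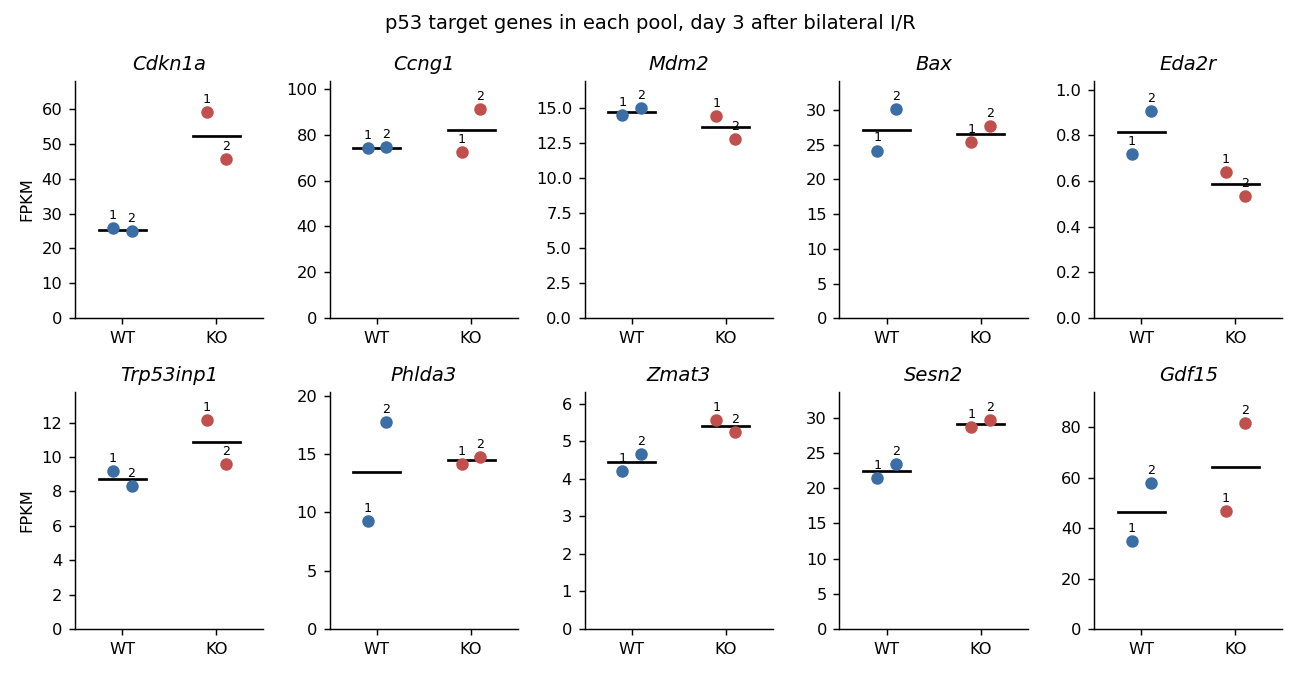
FPKM of the 10 p53 target genes (y axis, starting at 0) in each of the 2 WT (blue) and 2 KO (red) pools, numbered by replicate, with the group mean as a black line. The KO pools of Cdkn1a, at 59.0 and 45.7, lie well above the WT pools at 25.8 and 24.9, whereas the pools of Ccng1, Bax, Phlda3 and Gdf15 overlap.

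Among the genes of the arrest arm, Cdkn1a (ENSMUSG00000023067, chr17:29090979-29100722, GRCm38) encodes p21, the cyclin-dependent kinase (CDK) inhibitor through which p53 halts the cell cycle. Cdkn1a measured 25.8 and 24.9 FPKM in WT, against 59.0 and 45.7 in KO. The groups did not overlap, and the WT pools were nearly equal while the KO pools stood apart from each other. The group means were 25.4 ± 0.666 and 52.4 ± 9.44 (SD, n = 2 pools each). On the log2(FPKM + 0.5) scale the difference was 1.02 (SE 0.16, 95% confidence interval 0.59 to 1.45), with an adjusted p = 0.545 after Benjamini-Hochberg correction over all genes by limma (range 0.449 to 0.767). Leaving out 1 pool at a time gave log2 fold changes of 0.84 to 1.20. AC167363.2, a gene model that GENCODE M21 places on the opposite strand inside the Cdkn1a locus, was not analysed here, and reads from it could not be separated from those of Cdkn1a without strand information. Cdkn1a ranked 161 of 15414 by log2 fold change and 52 by unadjusted p. With 2 pools against 2, an exact two-sided permutation test cannot give a p below 0.333, so no single gene can reach 0.05 by that test. Because whole kidneys were measured, more RNA per cell and more cells of a type that makes the RNA cannot be told apart for this or any other gene.

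Ccng1 (ENSMUSG00000020326, chr11:40748552-40755311), which encodes cyclin G1, a regulator of the cell cycle and of p53 itself, also holds a double site in its promoter window. It was the most abundant member per length. It measured 74.2 and 74.5 FPKM in WT, against 72.6 and 91.3 in KO. KO replicate 2 was the highest pool and KO replicate 1 the lowest, so the groups overlapped. KO differed from WT by a log2 fold change of 0.13 (SE 0.16, 95% confidence interval -0.29 to 0.55, adjusted p = 0.891 by limma, range 0.854 to 0.994), and without KO replicate 2 it turned to -0.03. The 2 genes with a double site therefore differed in their values, with no overlap for Cdkn1a and overlap for Ccng1. The difference between these 2 genes was not tested.

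The values of the feedback arm were not higher in the KO pools. Mdm2 (ENSMUSG00000020184, chr10:117688875-117710758) encodes the ubiquitin ligase that marks p53 for degradation and is itself induced by p53. It measured 14.49 and 15.00 FPKM in WT, against 14.45 and 12.82 in KO. Both KO values were below both WT values, but KO replicate 1 and WT replicate 1 were separated by far less than the KO replicates were from each other. The KO minus WT difference was -0.11 in log2 (SE 0.12, 95% confidence interval -0.42 to 0.20, adjusted p = 0.873 by limma, range 0.826 to 0.914), and it was -0.03 when KO replicate 2 was omitted and -0.20 when KO replicate 1 was.

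Of the regulators, Trp53, which encodes p53, measured 13.6 and 18.3 FPKM in WT, against 16.3 and 12.6 in KO. The groups overlapped, with a log2 fold change of -0.13 (adjusted p = 0.916 by limma, range 0.896 to 0.944) that turned to 0.07 without WT replicate 2 and to 0.05 without KO replicate 2. Mdm4, whose protein binds p53 and blocks its activity, overlapped as well, at 6.14 and 6.29 in WT and 6.46 and 5.22 in KO, with a log2 fold change of -0.09 (adjusted p = 0.920 by limma, range 0.894 to 0.946) that turned to 0.05 without KO replicate 2. p53 is regulated largely at the protein level, which was not measured in these data. The transcripts of its relatives Trp63 and Trp73 and of Cdkn2a, which encodes the MDM2 inhibitor ARF together with p16, were below the filter.

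In the death arm, Bax (ENSMUSG00000003873, chr7:45461697-45466898) encodes the protein that permeabilises the outer mitochondrial membrane. It measured 24.2 and 30.2 FPKM in WT, against 25.5 and 27.6 in KO. Both KO pools fell within the range of the WT pools. Between the groups the log2 fold change was -0.03 (SE 0.15, 95% confidence interval -0.43 to 0.37, adjusted p = 0.981 by limma, range 0.954 to 0.986), and it became 0.13 without WT replicate 2 and 0.03 without KO replicate 1. Gm45808, an annotated gene that overlaps Bax on the same strand, was listed at 0 in all pools.

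Eda2r (ENSMUSG00000034457, chrX:97333840-97377216) encodes a receptor of the TNF receptor family that binds the A2 form of ectodysplasin. It was the least abundant member, at 0.718 and 0.908 FPKM in WT, against 0.639 and 0.533 in KO, from 51 to 92 reads a pool. Each KO value was below each WT value. This corresponds to a log2 fold change of -0.27 (SE 0.23, 95% confidence interval -0.87 to 0.33, adjusted p = 0.851 by limma, range 0.796 to 0.893). The size depends on the pseudocount at this low level, from -0.19 with a pseudocount of 1 to -0.41 with one of 0.1, and it was -0.47 with voom weights on recovered reads. It was -0.17 when WT replicate 2 was omitted and -0.38 when WT replicate 1 was. Its direction could not turn with a pool omitted, since the pools do not overlap. Its ligand gene Eda had a mean FPKM below the filter.

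Trp53inp1 (ENSMUSG00000028211, chr4:11156431-11174379) encodes a nuclear and autophagosomal protein that promotes p53-dependent death and autophagy. It measured 9.20 and 8.30 FPKM in WT, against 12.1 and 9.57 in KO. The groups did not overlap, although KO replicate 2 was nearer to WT replicate 1 than to KO replicate 1. A log2 fold change of 0.29 was estimated (SE 0.16, 95% confidence interval -0.12 to 0.70, adjusted p = 0.798 by limma, range 0.776 to 0.824), and single pools left out gave 0.12 to 0.45. Its paralog Trp53inp2, an autophagy factor, overlapped between the groups, at 52.5 and 45.5 in WT and 46.4 and 56.3 in KO.

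Phlda3 (ENSMUSG00000041801, chr1:135766119-135769136) encodes a pleckstrin-homology protein that restrains AKT signalling. It measured 9.22 and 17.7 FPKM in WT, against 14.1 and 14.8 in KO. The WT pools were the lowest and the highest of the 4, a 1.93-fold spread, and the KO pools lay between them. The estimate of the log2 fold change, 0.17 (SE 0.32, 95% confidence interval -0.67 to 1.00, adjusted p = 0.937 by limma, range 0.915 to 0.961), became -0.29 when WT replicate 1 was left out and 0.62 when WT replicate 2 was, so no direction can be read from it. Phlda2, an imprinted relative, had FPKM values of 13.3 and 10.5 in WT and 16.2 and 22.1 in KO, with no overlap (log2 fold change 0.65, adjusted p = 0.785 by limma, range 0.768 to 0.824), and 0.43 when KO replicate 2 was omitted.

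Of the stress genes, Zmat3 (ENSMUSG00000027663, chr3:32334792-32366014) encodes an RNA-binding zinc finger protein that regulates splicing and is a mediator of tumour suppression by p53. It measured 4.21 and 4.67 FPKM in WT, against 5.58 and 5.24 in KO. The groups did not overlap, and each replicate pair lay close together. Its log2 fold change of 0.26 (SE 0.12, 95% confidence interval -0.06 to 0.58, adjusted p = 0.797 by limma, range 0.776 to 0.833) varied from 0.19 to 0.33 as single pools were left out.

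Sesn2 (ENSMUSG00000028893, chr4:132492032-132510501) encodes sestrin 2, a leucine sensor that inhibits mTORC1 and supports antioxidant defence. It measured 21.4 and 23.5 FPKM in WT, against 28.6 and 29.7 in KO. The groups did not overlap, and the gap between them was wider than the distance within either group. The means were 22.4 ± 1.43 and 29.2 ± 0.736 (SD, n = 2 pools each). Limma gave a log2 fold change of 0.37 (SE 0.11, 95% confidence interval 0.07 to 0.67) with an adjusted p = 0.785 (range 0.770 to 0.824), and 0.31 to 0.44 when 1 pool was omitted. Gm12981, annotated within the Sesn2 locus on the same strand from 132503561 to 132509649 and named here after its values were seen, had 4 and 4 reads in WT and 16 and 17 in KO. These reads and unspliced Sesn2 reads cannot be told apart. Sesn3, a paralog, overlapped, at 5.24 and 6.00 in WT and 5.30 and 4.64 in KO.

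Gdf15 (ENSMUSG00000038508, chr8:70629393-70632456) encodes a secreted stress cytokine that acts on the brainstem receptor GFRAL. It measured 34.9 and 57.8 FPKM in WT, against 46.9 and 81.8 in KO. In both groups replicate 2 was the higher pool, by 1.66-fold in WT and 1.74-fold in KO, and the groups overlapped. With these values the log2 fold change was 0.46 (SE 0.37, 95% confidence interval -0.52 to 1.43, adjusted p = 0.843 by limma, range 0.799 to 0.906). It was the second largest of the members in size and the least precise, at 0.06 when KO replicate 2 was omitted and 0.86 when KO replicate 1 was. Gfral itself had 1 read in 1 pool and none in the others.

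**Figure D3:**
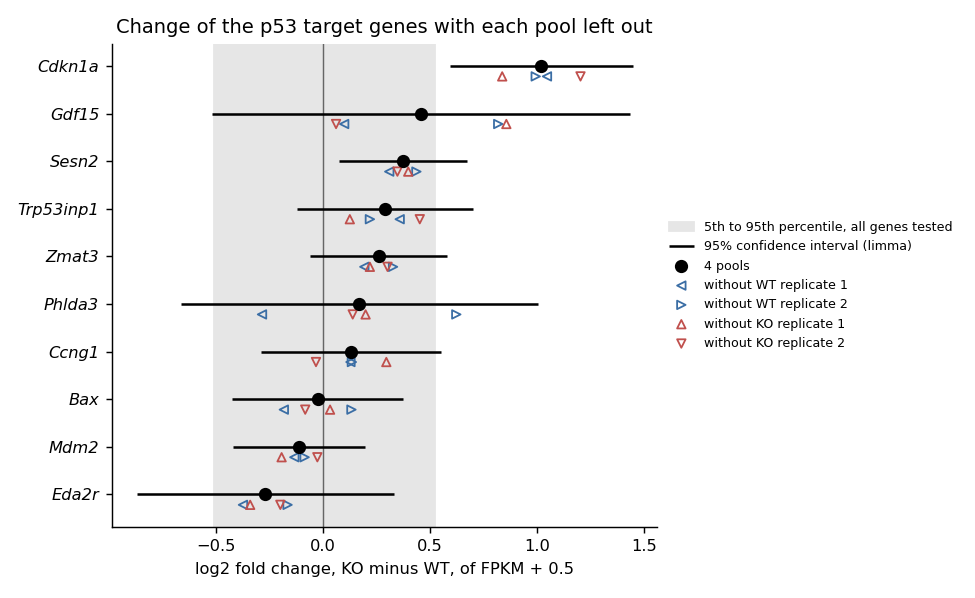
Log2 fold change (KO minus WT, of FPKM + 0.5) of each p53 target gene. Black points with lines are the limma value of the 4 pools and its 95% confidence interval, open triangles are the values with 1 pool left out, and the grey band is the 5th to 95th percentile of all genes tested (-0.51 to 0.52). Cdkn1a alone lies outside the band, at 1.02, and the triangles of Ccng1, Phlda3 and Bax fall on both sides of 0.

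Of the 10 log2 fold changes, 9 fell between the 5th and 95th percentile of all genes tested, -0.51 and 0.52. The percentiles set the share of all genes inside this range, and the members had about that share, so it does not set them apart. The members varied more in abundance than in response, with mean FPKM values from 0.700 for Eda2r to 78.2 for Ccng1. As a deviation from the mean of the 4 pools on the log2 scale, the median member stood at -0.17 in WT replicate 1, 0.01 in WT replicate 2, 0.04 in KO replicate 1 and 0.10 in KO replicate 2. The step between the 2 WT pools was larger than that between WT replicate 2 and either KO pool, and the pooled SD between replicates was 0.09. Whether a motif match goes with the size of the difference was not tested. Of the genes with a match, Cdkn1a had the highest log2 fold change of the members, Ccng1 overlapped, and Mdm2 and Bax were below 0. Sesn2, with no match in its window, had KO values above both WT values, and no window was examined for Trp53inp1 and Zmat3. Sequence outside the windows was not searched, so a missing match does not mean that a gene lacks a p53 site.

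Other genes of the p53 pathway are given by counts, beside the same background. Their lists were chosen with earlier results of these data known, so a share above the background is no independent evidence. Of 32 further p53 targets, 29 were tested, of which 17 had a log2 fold change above 0 and 12 below, with a median of 0.12. The pools did not overlap, with KO above, for 11 of the 29 (37.9%, background 19.7%) and, with KO below, for Ptp4a3 alone (3.45%, background 18.1%), and whether this share differs from the background was not tested. At an unadjusted p under 0.05, limma called 2 of the 29, Aen and Fas, higher and 0 lower, beside 3.29% and 3.03% of all genes tested, and none passed after adjustment. Aen, an exonuclease that acts in p53-dependent apoptosis, had FPKM values of 5.61 and 6.74 in WT and 8.99 and 9.94 in KO (log2 fold change 0.58, SE 0.14, adjusted p = 0.732 by limma, range 0.711 to 0.824). The death receptor gene Fas stood at 4.25 and 4.42 in WT and 5.48 and 5.51 in KO. Rps27l, the most abundant of these targets, had values of 149.8 and 127.1 in WT and 171.0 and 154.2 in KO, and its promoter window holds a double site as well, 117 to 98 bases upstream of a start. Pmaip1, which encodes NOXA, overlapped, at 10.2 and 14.5 in WT and 12.1 and 7.05 in KO. A half-site was found in 7 of 32 windows of 23 of these target genes (21.9%), beside 8.36% of all windows. With WT replicate 1 left out the median of the list was 0.02, and with KO replicate 2 left out 0.08, so its size rests on those pools.

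Of the 18 genes of the p53 family and its regulators, 15 were tested, with a median of -0.08, 5 above 0 and 10 below, and the pools did not overlap for 4 with KO above (26.7%, background 19.7%) and 3 with KO below (20%, background 18.1%). The sign of this median rests on single pools, since it was 0.02 without WT replicate 2 and 0.05 without KO replicate 2. Usp7, a deubiquitinase of MDM2 and p53, stood at 16.0 and 15.3 in WT and 17.3 and 17.5 in KO. Sirt1, a deacetylase of p53, stood at 4.26 and 4.41 in WT and 3.61 and 3.70 in KO. Neither passed the adjusted threshold (log2 fold changes 0.15 and -0.22, adjusted p = 0.827 and 0.798 by limma, with ranges of 0.824 to 0.887 and 0.780 to 0.840).

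Downstream of p21, the differences of cell cycle genes lay on both sides of 0. Of 18 genes that the p53-p21-DREAM pathway represses, all were tested, and 7 had a log2 fold change above 0 and 11 below, with a median of -0.08 that ranged from -0.32 to 0.19 as single pools were omitted. KO values were all below WT values for 1 of the 18 and all above for 0 (5.56% and 0%), beside 18.1% and 19.7% of all genes tested. At an unadjusted p under 0.05 limma called 0 of them, beside 3.29% of all genes higher and 3.03% lower. Mki67, the proliferation marker, had FPKM values of 7.43 and 11.5 in WT and 9.01 and 5.86 in KO. Ccnb1, the mitotic cyclin B1, had 5.43 and 6.22 in WT and 7.53 and 6.13 in KO. The groups overlapped for both genes. Bub1 was the 1 gene with KO values all below WT values, at 1.90 and 2.31 in WT and 1.81 and 1.80 in KO. Its log2 fold change was -0.17, with an adjusted p = 0.856 by limma. Whether the higher Cdkn1a values bear on the values of these genes was not tested.

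Of 14 tested CDK inhibitors, cyclins and CDKs, 8 were above 0 and 6 below, with a median of 0.03, and the pools were separate for 4 with KO above (28.6%, background 19.7%) and 1 with KO below (7.14%, background 18.1%). Its sign and size rest on single pools, as the median turned to -0.09 when WT replicate 1 was omitted and reached 0.18 when WT replicate 2 was, while omitting KO replicate 1 or 2 gave 0.0040 and 0.14. Cdkn1b, which encodes the p21 relative p27, stood at 12.4 and 10.9 in WT and 12.8 and 11.1 in KO, and the groups overlapped. Cdkn2d, which encodes the inhibitor p19, stood at 9.13 and 7.76 in WT and 12.0 and 10.2 in KO with no overlap (log2 fold change 0.37, adjusted p = 0.785 by limma, range 0.776 to 0.824). Cdk4, which p21 binds in complex with cyclin D, stood at 29.9 and 36.4 in WT and 28.4 and 29.3 in KO (log2 fold change -0.19, adjusted p = 0.832 by limma, range 0.820 to 0.871), with -0.05 when WT replicate 2 was omitted and -0.33 when WT replicate 1 was. Pcna, the replication clamp and a p21 partner, overlapped at 34.0 and 39.3 in WT and 40.7 and 36.0 in KO.

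The BCL-2 family, to which Bax belongs, had 15 tested genes besides it, 10 above 0 and 5 below, with a median of 0.09 and separate pools for 2 with KO above (13.3%, background 19.7%) and 1 with KO below (6.67%, background 18.1%). The median turned to -0.09 without KO replicate 2 and was near 0 without WT replicate 1. Bcl2l1, whose product BCL-XL restrains BAX, stood at 38.6 and 39.3 in WT and 52.1 and 55.9 in KO (log2 fold change 0.46, SE 0.11, adjusted p = 0.742 by limma, range 0.740 to 0.790). It was named as the family member with the lowest unadjusted p among those with higher KO values, and its groups did not overlap, while those of Bax did. Mcl1, a further survival gene of the family, overlapped at 70.3 and 76.5 in WT and 69.0 and 88.0 in KO.

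Because Sesn2 and Gdf15 also respond to ATF4, 9 ATF4 and stress genes were set beside them. Of these, 4 were above 0 and 5 below, with a median of -0.11, and the pools were separate for 1 with KO above (11.1%, background 19.7%) and 2 with KO below (22.2%, background 18.1%). The sign of this median rests on WT replicate 2, without which it was 0.11, and it was -0.26 without WT replicate 1 and near 0 without either KO replicate. Atf4 overlapped at 46.5 and 52.2 in WT and 49.8 and 54.4 in KO. Atf3 stood at 6.79 and 11.3 in WT and 4.66 and 5.60 in KO, below WT with no overlap (log2 fold change -0.72, adjusted p = 0.785 by limma, range 0.746 to 0.824), and -0.38 without WT replicate 2. Sesn2 is also a target of NRF2, the regulator of antioxidant genes, and all 7 tested NRF2 target genes had log2 fold changes above 0, with a median of 0.67 and no overlap for 6 of them (85.7%), beside 51.4% of all genes tested above 0 and 19.7% without overlap and with KO above. Nqo1 stood at 57.9 and 26.1 in WT and 137 and 158 in KO (log2 fold change 1.90, SE 0.40, adjusted p = 0.677 by limma, range 0.623 to 0.812). Whether p53, ATF4, NRF2 or other regulators contributed to the values of Sesn2, Gdf15 or Cdkn1a was not tested.

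**Figure D4:**
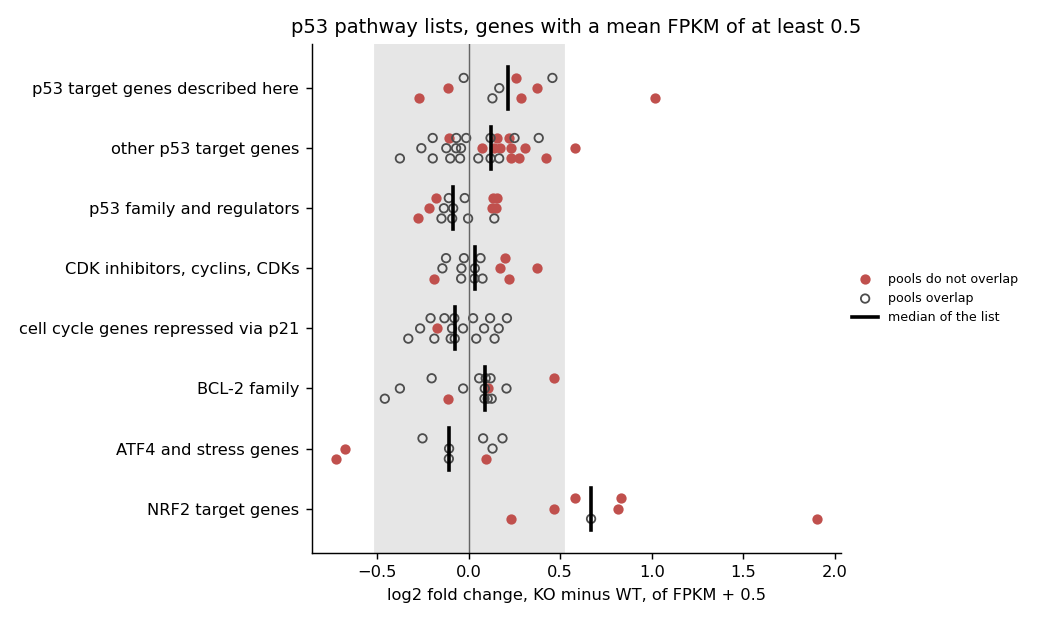
Log2 fold change (KO minus WT, of FPKM + 0.5) of every gene with a mean FPKM of at least 0.5 in 8 lists of the p53 pathway and of stress responses. Filled points are genes whose WT and KO pools do not overlap, open points those that overlap, vertical bars the median of each list, and the grey band the 5th to 95th percentile of all genes tested. The medians are 0.21 for the p53 target genes described here, 0.12 for the other targets, -0.08 for the cell cycle genes repressed via p21 and 0.67 for the NRF2 targets.

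Marker sums of several cell types varied between the pools alongside some of these values, and their part in the values was not tested. The summed FPKM of 9 macrophage and leukocyte markers was 90.4 and 236 in WT, against 130 and 154 in KO, and that of 5 fibroblast markers was 151 and 321 in WT and 192 and 272 in KO. WT replicate 2 was the highest and WT replicate 1 the lowest in both sums, as they were for Phlda3 and Bax, and Trp53 was highest in WT replicate 2 as well. The 6 proximal tubule markers summed to 2220 and 1654 in WT and 1438 and 1880 in KO, 8 markers of other nephron segments to 1846 and 1363 in WT and 1907 and 1532 in KO, and 5 endothelial markers to 44.4 and 57.2 in WT and 53.1 and 66.8 in KO. These 5 sums overlapped between the groups, whereas single markers within them and the adipose sum did not. Of the 5 fibroblast markers, Dcn alone was separate, with KO below (log2 fold change -0.78, 20%, background 18.1%), and 2 were above 0 and 3 below. Of the 8 tested leukocyte markers, Ptprc alone was separate, with KO below (-0.58, 12.5%, background 18.1%), and 3 were above 0 and 5 below. Without WT replicate 2, Dcn was at -0.52 and Ptprc at -0.13. Of the 6 proximal tubule markers, 5 had log2 fold changes below 0. The KO values of Lrp2 (-0.38), Slc34a1 (-0.74) and Slc5a2 (-0.65) were all below the WT values (50%, background 18.1%). Slc22a6 lay the other way, at 0.73 without overlap. Single pools moved the sizes of Slc34a1, Slc5a2 and Slc22a6. Slc34a1 was at -0.37 when KO replicate 1 was omitted and -1.11 when KO replicate 2 was. Slc5a2 was at -0.43 when KO replicate 1 was omitted. Slc22a6 was at 0.37 when WT replicate 2 was omitted and 0.38 when KO replicate 2 was. Their direction could not turn in this way, since their pools do not overlap. All 5 endothelial markers had log2 fold changes above 0, beside 51.4% of all genes tested, with no overlap for Kdr and Tie1 (40%, background 19.7%). Their median of 0.24 was 0.06 when WT replicate 1 was omitted and 0.08 when KO replicate 2 was. By quantitative PCR at the same stage, the study reported lower Tie1 in KO than in WT and no significant difference for Kdr. Tie1 measured 9.57 and 12.9 FPKM in WT, against 13.2 and 13.2 in KO (log2 fold change 0.24, adjusted p = 0.827 by limma). WT replicate 2 lay near the KO pools, so the size of this difference rests largely on WT replicate 1. The direction of Tie1 in these pools was thus the other way without passing the threshold, and the reason was not tested. None of the markers in these 5 sums was at 0 in any pool other than Cd3e, at 0 in 3 pools. The 9 tubular injury genes summed to 8305 and 9378 in WT and 10507 and 8109 in KO, with 5 log2 fold changes above 0 and 4 below. KO values were all above WT values for 4 of them (44.4%, background 19.7%), namely Lcn2, Krt20, Krt18 and Krt8, and all below for Vcam1 (11.1%, background 18.1%). Krt20 stood at 35.6 and 36.8 in WT and 60.0 and 61.0 in KO (log2 fold change 0.73, adjusted p = 0.545 by limma, range 0.449 to 0.746), and Lcn2 at 132.6 and 95.2 in WT and 249.0 and 273.1 in KO (log2 fold change 1.21). Vcam1 stood at 14.6 and 31.0 in WT and 10.5 and 2.59 in KO (log2 fold change -1.91, adjusted p = 0.785 by limma, range 0.770 to 0.824), with -0.99 when KO replicate 2 was omitted and -2.82 when KO replicate 1 was. The pools of Havcr1, Clu, Sox9 and the most abundant gene, Spp1, overlapped.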

How the data were processed

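Kidney RNA of 4 pools, 2 WT and 2 Apela Ksp KO, was sequenced by the authors, who deposited 1 table of FPKM per gene and pool. Per the labels, polyadenylated RNA was used, and the submitters' processing notes name HISAT2 2.0.5 and the builds mm10 and GRCm38.p6. The counting tool and strand setting were not given in the sources used here. FPKM times gene length, divided by the size of 1 read in that pool, which was found from the low values, gave whole reads for 100% of values (tolerance 0.01), and these reads were used for depth and for voom weights.

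Values were compared as log2(FPKM + 0.5), with a pseudocount of 0.5, by limma 3.58.1 in R 4.3.3 (lmFit, eBayes with trend, two-sided), without covariates. Genes were kept when their FPKM averaged 0.5 or more over the 4 pools, which left 15414, with Benjamini-Hochberg adjustment over all of them. Fold changes on this scale understate changes of low genes. The fit was tested on simulated data. The threshold was an adjusted p of 0.05. Pools are biological replicates of 3 mice each, so p-values rest on the spread between pools. The variance of each gene was drawn toward a trend over all genes (prior of 2.62 degrees of freedom). SEs and p-values thus do not reflect the gene's own spread alone. The replicate numbers come from the sample names, and nothing in the labels pairs them. The comparison was repeated with a pseudocount of 0.1 or 1, without the filter or with one at an average FPKM of 1, after quantile normalization, with voom weights, with a replicate block and with each pool left out, where the lone pool is assumed to vary like the other group.

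The members, the gene lists and the tests were chosen with earlier results of these data known. Beside the members, Apela, Trp53 and Mdm4, the rule allowed up to 4 genes of each list to be named, by the highest mean FPKM, the lowest unadjusted p in each direction and passing the threshold, which no gene did, and genes named outside it, such as Fas, Ptp4a3, Cdkn1b, Lcn2, Lrp2 and Gm12981, were chosen after their values were seen. Gene positions were those of the table, and 97.1% of 53706 genes had the same start and end in GENCODE M21. Promoters were from RefSeq.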

Additional observations from a re-analysis of the deposited data

How the results depend on the processing

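With 2 pools in each group, the spread between pools limits precision, and depth does so as well for Eda2r, at 51 to 92 reads a pool, and for the genes named with fewer reads, such as Apela in KO (9 and 4) and Gm12981 in WT (4 and 4). No gene passed an adjusted p of 0.05 by limma under any alternative, and the genes at an unadjusted p under 0.05 numbered 974, with 970 by voom weights and 687 to 1720 with each pool left out, the highest without WT replicate 1. With the replicate number as a replicate block, 932 genes had an unadjusted p under 0.05, 0 passed after adjustment and 0 members did. Samples of the same number did not deviate together (correlation -0.00166 over 15414 genes). The pools did not overlap for 5822 genes, and this count was 8768 with no filter, where more genes are tested, and 10220 to 11358 with each pool left out, where fewer samples are compared. Of 37 genes followed, 26 kept their direction with every pool left out, including 7 of the 10 members. Genes whose pools do not overlap cannot turn when 1 pool is left out, and some of the 37 were named for a low unadjusted p. The count is thus partly fixed by the choice of genes. With each pool left out, the log2 fold change ranged from -0.0342 to 0.295 for Ccng1, -0.287 to 0.622 for Phlda3, -0.185 to 0.132 for Bax, -0.344 to 0.0745 for Trp53, -0.231 to 0.0519 for Mdm4, -0.0382 to 0.169 for Pcna, -0.270 to 0.554 for Cdc20, -0.0878 to 0.261 for Mcl1, -0.0746 to 0.200 for Trp53inp2, -0.0041 to 0.163 for Atf4 and -0.106 to 0.277 for Spp1. Quantile normalization gave Pcna -0.0202, Mcl1 -0.0223, Trp53inp2 -0.0271, Atf4 -0.0128 and Spp1 -0.0842, each reversed from above 0, and it reversed no member. The cause of these reversals was not tested. Eda2r has no value under the filter at an average FPKM of 1.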

Other observations

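The relatives of the p53 target genes gave a median log2 fold change of 0.01 over the 8 of 11 that were tested, with 5 above 0 and 3 below. The sign of this median depended on single pools, from -0.13 without KO replicate 1 to 0.10 without KO replicate 2. KO values were all above WT values for Phlda2 alone (12.5%, beside 19.7% of all genes tested). The pools overlapped for Ccng2, which encodes cyclin G2, at 6.55 and 5.66 FPKM in WT, against 6.78 and 5.55 in KO. Overlap was seen as well for Sesn1, a sestrin that p53 also induces, at 4.58 and 5.27 in WT, against 5.88 and 4.44 in KO.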
